A study of Betula luminifera with 2 samples.

Results

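The miRNAs described here are the less conserved families among those that matched miRBase, the public miRNA registry, in Betula luminifera, a birch grown for timber. They were chosen by name, as the matched entries whose family number lies outside a list of 33 widely conserved plant families, of which 30 were present. The rule used no measured value. It took 65 of the 569 entries of the small RNA table, which came to 61 of 505 distinct mature sequences and 55 of 85 family numbers, and 5 of the 108 alignments of the degradome table. The comparison classes were the conserved matched families, with 118 sequences in 30 families, and the 326 candidates, which have no miRBase match and were predicted from hairpins.

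The material was tissue culture seedlings of clone G49#, 2 months old, and the source was their roots, stems and leaves, from which equal amounts of RNA were combined for small RNA sequencing. No treatment or mutant was part of the design. Small RNAs were sequenced from 1 library and transcript cuts from 1 degradome library, in which reads start where a polyadenylated transcript was cut. Neither had a replicate, all material came from a single clone, and combining organs hid any difference between them, so no test between samples was possible. Shares carry exact (Clopper-Pearson) binomial intervals at 95%, which cover counting error only, since without molecular identifiers PCR copies cannot be told from separate molecules.

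In plants a miRNA is cut by a Dicer-like enzyme from the stem of a folded precursor as a duplex of 2 arms with short 3′ overhangs. The strand kept by an Argonaute protein then guides cutting of transcripts that pair with it, between the bases opposite its bases 10 and 11. Widespread families usually have many gene copies and high levels, while families known from a few lineages are often single loci with low levels. Old annotations of such families can also include fragments of other RNAs, because a registry match alone does not show that a hairpin was processed.

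The most-read sequences of the families with the most reads are shown first, since they hold nearly all reads of the class. Capitals mark the seed, bases 2 to 8, and letters are DNA letters as deposited.
miR894: cGTTTCACgtcgggttcacca
miR1310-3p: aAATAGGTaggacggcgcggct
miR1310-5p: aTTAGAGGcatcgggggc
miR2916-3p: aCCAGGGAtcggcggatgttgc
miR2916-5p: tACCGTCCtagtctcaaccata
miR1511 and miR5139: aACCTGGCtctgatacca
miR7122-3p: aCCGTGTTtctctgtataaag
miR7122-5p: tTATTCAGagaaatcacggt
miR5072: tTCCCCAGtggagtcgcca
miR1425: tAGGATTCaatccttgctgct
miR2950: tTCCATCTcttgcacactgga
miR479: cGTGTTATtggttcggctcatc
miR477: aCTCTCCCtcaagggcttctc

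Reads were concentrated in few families. The 55 families held 35534.3 of the 607592 listed reads (5.85%, interval 5.79 to 5.91%), against 563401 reads in the 30 conserved families. Of the reads of the class, miR894, named for a moss, held 50.2% (49.7 to 50.7%), miR1310 24.7% (24.3 to 25.2%) and miR2916, named for a desert poplar, 20.97% (20.5 to 21.4%). The first 3 families together thus had 95.9% of the reads, and the first 10 had 99.4%. Without miR894 the class held 3.001% of the listed reads.

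Below them lay 4 families with 149 to 367.7 reads. The sequence listed under both miR5139 and miR1511 had 727.3 reads, which the file divided into 367.7 and 359.7, so the level of either family alone cannot be told. miR7122, which in apple and peach sets off secondary small RNAs from transcripts of pentatricopeptide repeat proteins, had 160 reads. miR5072 had 149 reads from a single sequence. miR1425, which in rice targets pentatricopeptide repeat transcripts of the fertility restorer kind, had 97 reads and was the same as the rice sequence letter for letter.

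Another 8 families, miR1425 among them, had 11 to 97 reads. The others of this range were miR2950, with 43 reads in each of 2 entries of the same sequence, miR479 with 50, miR477 with 49, miR1862 with 19, miR5077 with 17, miR6300 with 15 and miR6167 with 11. Between 2 and 9 reads were found for 16 families. These were miR1859, miR6478, miR1515, miR1876, miR2877, miR5054, miR3627, miR5150, miR530, miR5660, miR6284, miR1423, miR1878, miR5157, miR528 and miR6485. The grass family miR528, which targets transcripts of copper enzymes in rice, was in this range with 2 reads.

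A single read each was listed for 24 of the 55 families (43.6%), against at most 1 read for 2 of the 30 conserved families (6.67%). The 24 were miR1312, miR1432, miR1507, miR1874, miR1883, miR2092, miR2873, miR2874, miR3522, miR3623, miR3711, miR4996, miR5145, miR5148, miR5812, miR6188, miR6189, miR6219, miR6454, miR7528, miR7534, miR818, miR950 and miR951. They include miR1507, a regulator of disease resistance genes in legumes, and miR1432, which in rice targets an acyl-CoA thioesterase. A single read is too little to set a level. The median was 2 reads per sequence in the less conserved class (quartiles 1 and 15), 19.25 in the conserved class (3.25 and 115) and 9.5 over all 505 sequences. The steep order and its flat tail can be seen in the plot of families.

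**Figure D1:**
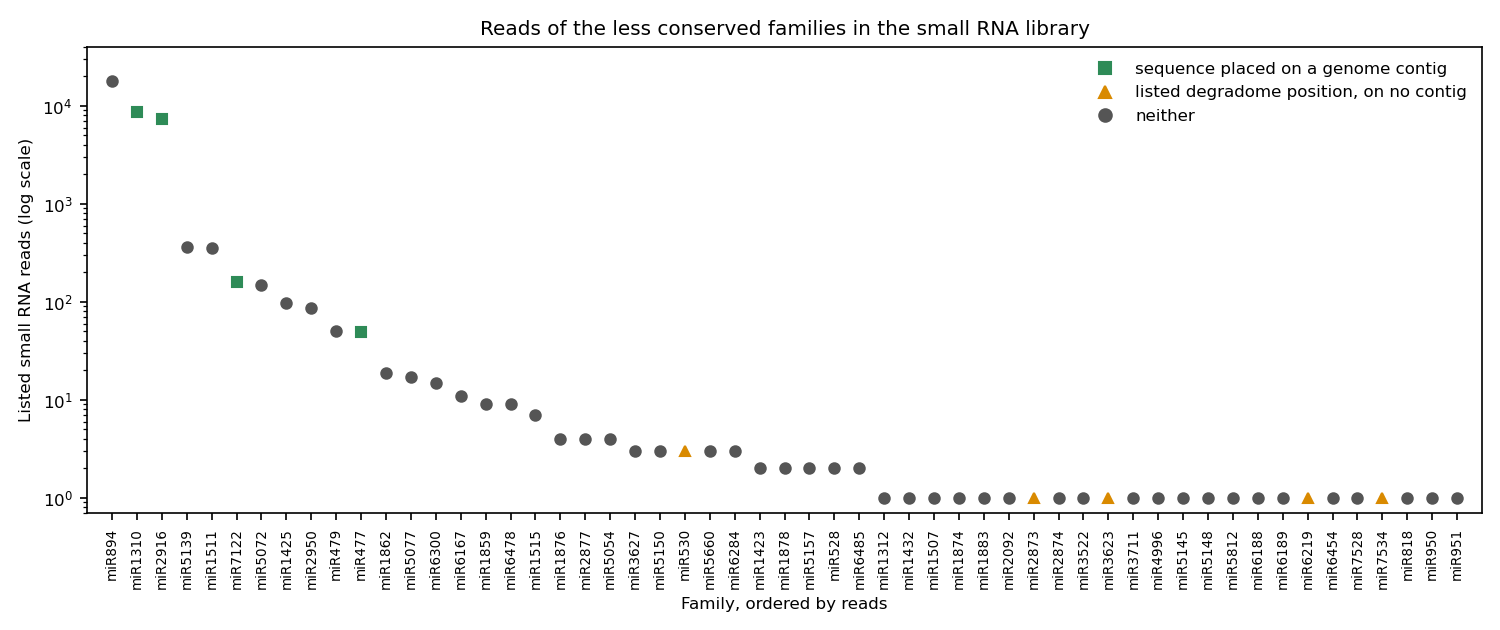
Listed small RNA reads (log scale) of each of the 55 less conserved families in the single library, ordered by reads. Squares mark the 4 families with a sequence on a genome contig, triangles the 5 with a listed degradome position and circles the rest; miR894, miR1310 and miR2916 stand at 7450 reads or more, and 24 families sit at 1 read.

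Lengths were spread more widely than in the conserved class. Of the 61 sequences, 12 were 21 nt long (19.7%, 10.6 to 31.8%), 14 were 22 nt (23.0%, 13.2 to 35.5%) and 13 were 24 nt (21.3%, 11.9 to 33.7%). Lengths of 18 or 19 nt, below the usual range of plant miRNAs, made up another 14 (23.0%, 13.2 to 35.5%). In the conserved class 59.3% (49.9 to 68.3%) were 21 nt, 3.39% (0.931 to 8.45%) were 24 nt and 3.39% were 18 or 19 nt. Over all 505 sequences these shares were 30.5, 45.3 and 4.55%. These are descriptions of 1 library, and sequences are not replicates, so no test was made.

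Counted by reads, 51.3% (50.7 to 51.8%) of the class were 21 nt, nearly all of them miR894, and 42.3% (41.8 to 42.9%) were 22 nt, which are mostly the 3′ sequence of miR1310 and both sequences of miR2916. Reads of 24 nt were 39 in all (0.110%, 0.0781 to 0.150%). Uracil, the 5′ base that Argonaute 1 prefers in plants, opened 26 of 61 sequences (42.6%, 30.0 to 55.9%) but only 5.81% of the reads (5.57 to 6.06%). In the conserved class uracil opened 65.3% of the sequences (55.9 to 73.8%) and 99.5% of the reads. A single sequence held 513486 of the 563401 conserved reads, so that share of reads mostly describes this sequence. Uracil opened 29.4% of the candidates and 39.4% of all 505 sequences, so by sequences the less conserved class lay near the share over the whole table. Each of the 3 most-read sequences of the class opened with cytosine or adenine.

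**Figure D2:**
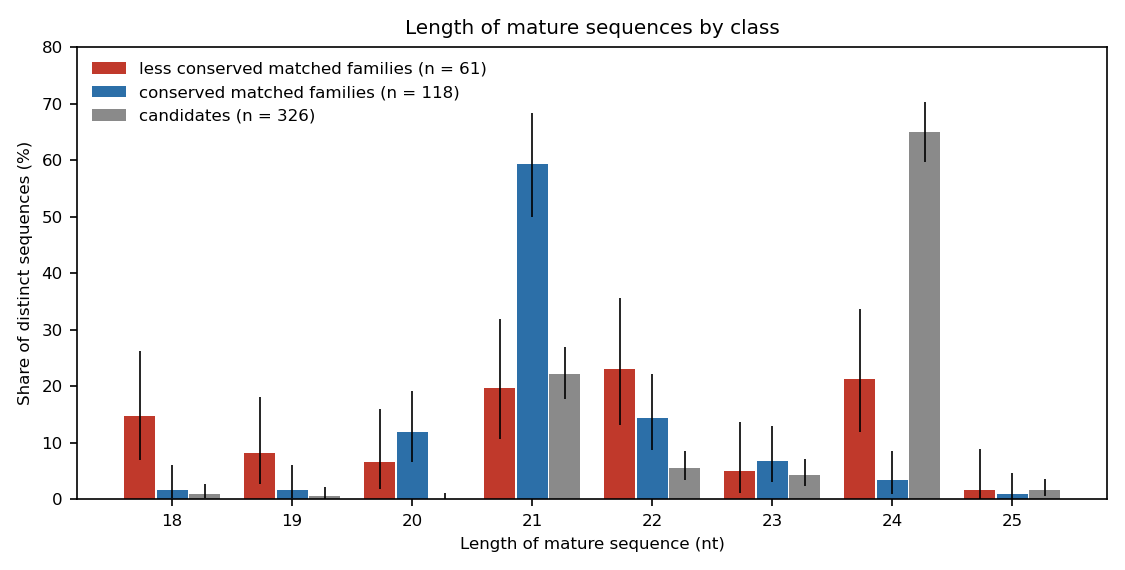
Share of distinct mature sequences (%) at each length from 18 to 25 nt for the less conserved, conserved and candidate classes; bars are shares and lines their exact 95% binomial intervals. The less conserved class has no single peak, with 19.7% at 21 nt, 23.0% at 22 nt and 21.3% at 24 nt.

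The species behind the names differed with length. Of the 61 sequences, 30 were named for a grass (49.2%, 36.1 to 62.3%), 24 of them for rice, whereas 16.1% (9.98 to 23.997%) of the conserved sequences carried a grass name. The 30 grass-named sequences held 330 reads together, 0.929% of the class, with a median of 1 read and a highest value of 149 for miR5072. None of them lay on a contig, where 7 of all 61 sequences did (11.5%). Rice gave the names of 12 of the 13 sequences of 24 nt, and 8 of the 13 equalled the registered sequence exactly. These 24-nt sequences had 1 to 16 reads with a median of 2, and 8 began with adenine. The most-read of them and its relative, which differ at a single base, are shown.
miR1862d: aCTAGGTTtgtttattttgggacg
miR1862e: aCTAGATTtgtttattttgggacg
The 5′ and 3′ sequences of miR5150, with 1 and 2 reads, were also of 24 nt and were reverse complements of each other over 23 nt but for 1 base. The origin of exact rice sequences that lie on no birch contig was not tested.
miR5150-5p: aGCTTCTGacagctgcagtttctc
miR5150-3p: aGAAGCTGcagctgtcagaagctc

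Across the class, 16 of 61 sequences equalled a registered mature sequence and 41 differed from one. The other 4, both sequences of miR1310 and both of miR2916, matched a registered precursor where the table marks no registered mature sequence. Names recorded at most 2 substitutions and at most 9 end bases. Substitutions and end changes were those written in the authors' names. The 61 sequences had 60 distinct seeds. The only seed shared within the class was that of the pair of miR477 sequences, and the only one shared with a conserved family was that of miR5150-3p, which 3 miR167 sequences also carry.

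Sequences that end in CCA held most of the reads of the class. This ending was noticed after the values were seen. It was found in 6 of the 61 sequences (9.84%, 3.70 to 20.2%), with 52.7% of the reads (52.2 to 53.2%), against 2 of 118 conserved sequences (1.69%, 0.206 to 5.99%), with 0.0295% of the reads, and 1 of 326 candidates. Capitals mark the ending.
miR894: cgtttcacgtcgggttcaCCA
miR1511 and miR5139: aacctggctctgataCCA
miR5072: ttccccagtggagtcgCCA
miR5077: gttcacgtcgggttcaCCA
miR5054: gttccccacggtcggcgCCA
miR3623: cgagttcatccaagcaCCA
Their reads were 17836 for miR894, 727.3 for the shared sequence, 149 for miR5072, 17 for miR5077, 4 for miR5054 and 1 for miR3623. The sequences of miR894 and miR5077 match at all but 1 of 19 aligned bases. The registered sequences of miR5072, miR5077, miR5054, miR3623 and miR5139 also end in CCA, whereas that of miR894 stops 1 base short and that of miR1511 runs past it. None of the 6 lay on a contig, but only 7 of all 61 sequences of the class did (11.5%). CCA is also the 3′ end of every mature transfer RNA, as background, and whether these reads came from transfer RNA was not tested.

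Few of the families could be placed on the genome. A sequence on a contig was found for 4 of 55 families (7.27%, 2.02 to 17.6%), against 20 of 30 conserved families (66.7%, 47.2 to 82.7%), and for 7 of 61 sequences (11.5%, 4.74 to 22.2%) against 55.1% (45.7 to 64.3%) of the conserved sequences. Among the 17 sequences of the class with at least 10 reads, 41.2% were placed. The conserved share at that threshold was not taken, so the classes were not compared at like reads per sequence. By reads 46.3% of the class was placed, against 98.2% of the conserved reads. A single conserved sequence held 513486 of the 563401 conserved reads, so the last share mostly describes that sequence. Likewise, miR1310 and miR2916 held 16232 of the 16439 placed reads of the class, so its share mostly describes those 2 families. The 7 placed sequences had 21 to 7511 reads, and the other 54 had a median of 1.5 reads but include miR894 at 17836. By the authors' mapping groups, the registered precursors of miR1310 and miR2916 themselves mapped to the contigs (4 entries), whereas for miR7122 and miR477 the reads mapped but the registered precursors did not (5 entries). The other 56 entries matched a registered mature sequence alone, with neither read nor precursor on the genome. Sequences on no contig carry the precursor of another species in the table, so their folding values do not describe birch. Contig positions are those of the deposited table, on an assembly of unstated build.

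The placed loci of miR7122 and miR477 are shown, with capitals over the listed mature sequences, because their folding differs from that of miR1310 and miR2916.
miR7122, contig_333636:457-574, plus strand: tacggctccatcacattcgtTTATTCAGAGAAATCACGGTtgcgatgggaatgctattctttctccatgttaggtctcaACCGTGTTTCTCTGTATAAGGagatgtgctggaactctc
miR7122, contig_390414:1371-1480, plus strand: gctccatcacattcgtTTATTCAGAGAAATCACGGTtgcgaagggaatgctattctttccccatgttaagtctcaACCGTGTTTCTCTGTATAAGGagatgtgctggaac
miR477, contig_385775:930-1063, minus strand: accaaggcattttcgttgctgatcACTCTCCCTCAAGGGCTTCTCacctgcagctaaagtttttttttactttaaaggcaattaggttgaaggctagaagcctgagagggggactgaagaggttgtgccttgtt
The 2 miR7122 loci differ at 3 of 110 aligned bases, outside both listed mature sequences. In the deposited folding of each, 18 base pairs join the 5′ and the 3′ sequence, and the 3′ sequence extends 2 nt past its partner while the 5′ sequence has no overhang. The 5′ sequence had 21 reads and the 3′ sequence 139, which is 6.62 times as many, and the table divided both equally over the 2 loci. The listed 3′ sequence differs from both contigs by G20A, with the contig base first and positions counted from the 5′ end of the mature sequence. The folding index, which scales the folding energy to precursor length and GC content, was 0.9 at both loci. For miR477, whose placed sequence is named for potato, 17 of the 21 bases of the 5′ sequence were paired and the index was 0.9. Its other arm was not listed.

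The loci of miR1310 and miR2916 folded differently and held 16232 reads between them. Whether these reads came from a miRNA precursor or from another RNA was not tested.
miR1310, contig_2804:414-497, plus strand: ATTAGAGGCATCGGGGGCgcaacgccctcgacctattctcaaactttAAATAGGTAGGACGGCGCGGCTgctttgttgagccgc
miR2916, contig_731:591-681, plus strand: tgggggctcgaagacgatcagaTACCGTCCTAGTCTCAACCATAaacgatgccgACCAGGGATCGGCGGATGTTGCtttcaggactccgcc
At miR1310 the 5′ sequence had 1271 reads and the 3′ sequence 7511, and at miR2916 the values were 1654 and 5796. In both deposited foldings no base pair joined the listed 5′ and 3′ sequences, which paired with other bases of the precursor. The hairpins were 29 and 35 nt long, under the 50 nt among the hairpin criteria of the file header, and the indices were 0.6 and 0.5. The 5′ sequences had 11 and 10 paired bases, fewer than the 12 among those criteria for a mature region, while the 3′ sequences, with most of the reads, had 12 and 14. Over the conserved class, 26 of 28 loci with both arms listed had at least 12 pairs between the arms, with a median of 17, and 1 had none. Over the candidates, 25 of 131 such loci had none and the median was 13. Refolded with RNAfold, the indices were 0.664 for miR1310, 0.540 for miR2916, 0.877 for miR477 and 0.848 and 0.921 for the miR7122 loci. Pairs between the arms are given for the deposited foldings only, so whether they hold on refolding is not shown.

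**Figure D3:**
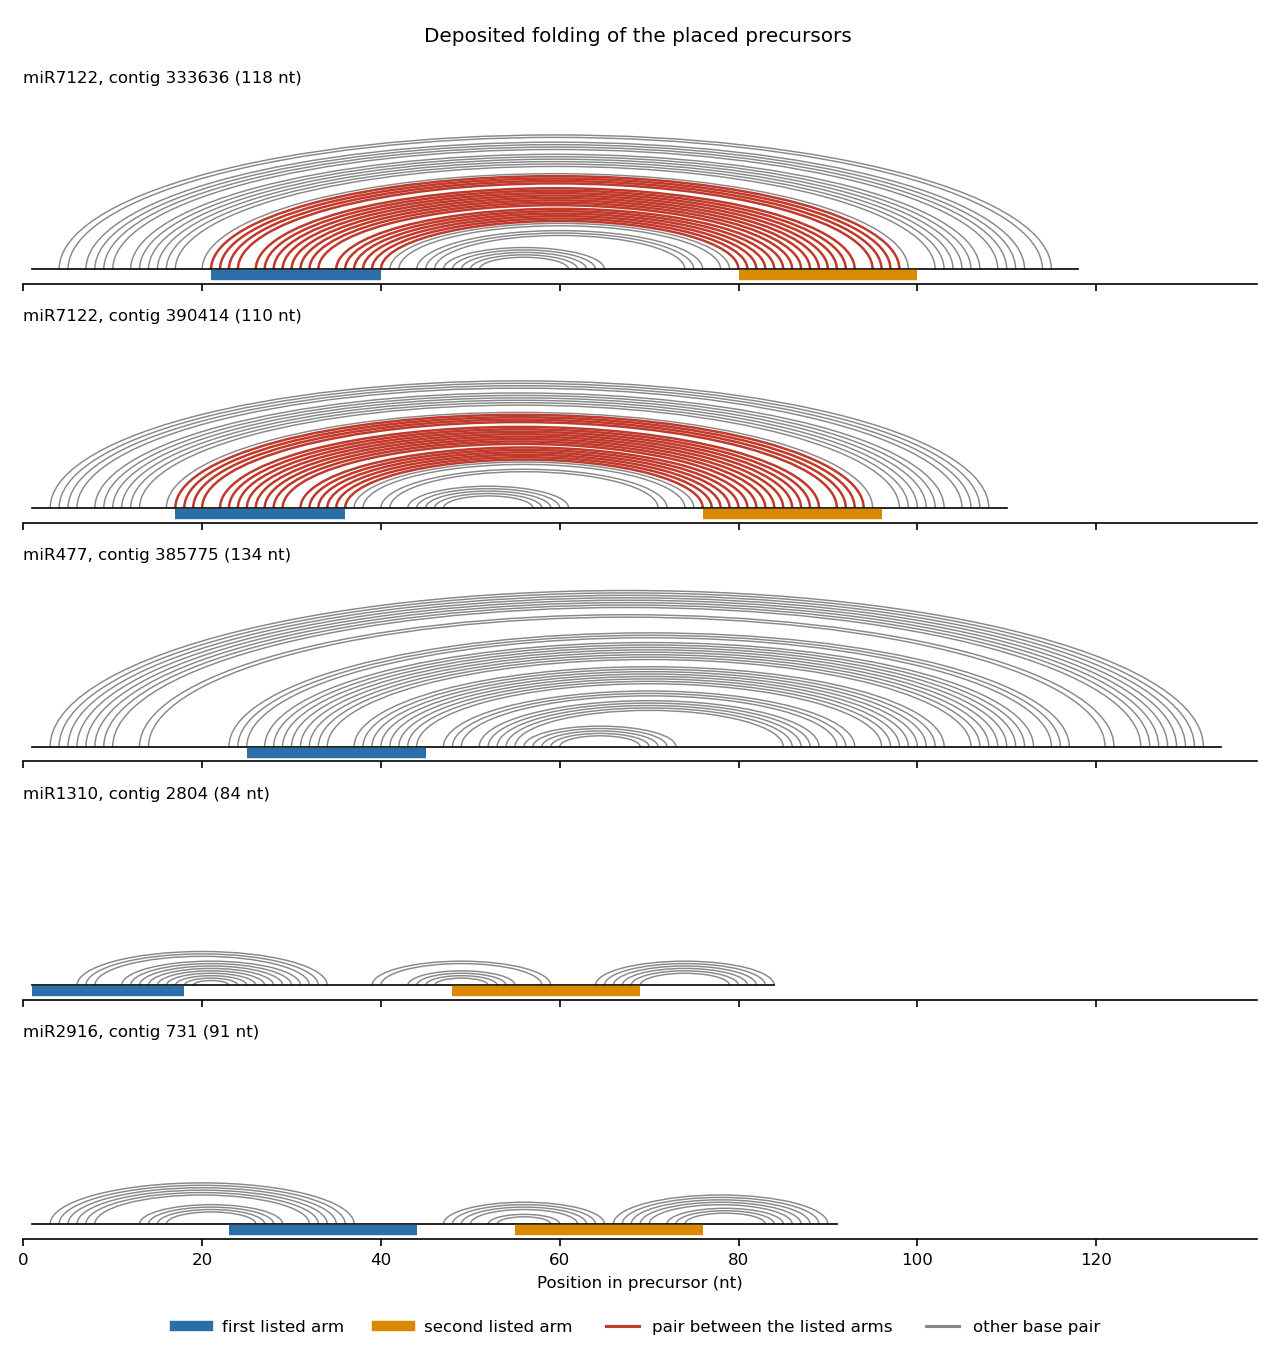
Deposited base pairs (arcs) of the 5 placed precursors along their length in nt, with the listed mature sequences as bars below; red arcs join the 2 listed arms. Both miR7122 loci have 18 such pairs and miR1310 and miR2916 have 0; miR477 has 1 listed arm.

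Over all 60 distinct precursors of the class the median index was 0.95 (order-statistic interval 0.8 to 1.1), with a range of 0.5 to 1.7. It was 1 for the 103 conserved and 1.3 for the 235 candidate precursors. The candidates were predicted from hairpins, and none of their indices was under 0.9. Of the 60 precursors of the class, 55 lay on no contig and are those of other species, as were 55 of the 103 conserved ones. The medians therefore do not compare birch precursors alone. The 5 placed precursors of the class ranged from 0.5 to 0.9. Of the conserved loci on contigs, none was under 0.7.

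The degradome table listed 1 position each for 5 of the families, with the following sites. Of the 61 sequences, 5 had a listed position (8.20%, 2.72 to 18.1%), against 51 of 118 conserved sequences (43.2%) and 8 of 326 candidates (2.45%). Over all 505 sequences there were 64 (12.7%). That share lies within the interval of the class but mixes these unlike classes. The sites are shown because they are all the listed degradome sites of the class. The capital is the base at which the listed cut fragments begin, and every one lies opposite base 10 of its miRNA, as did all 69 positions of the table. As it held for every listed position whatever its p-value, this placement lends no support to any single site.
miR530 site, CL6517.Contig2:512-533: gcaggcugaaggUgcaaaugcg
miR2873 site, Unigene7825:100-119: auuccaaauuUggguccaac
miR3623 site, Unigene12495:596-613: agcuguugGaugaacuug
miR6219 site, CL275.Contig2:406-423: cagcuuuaGuuccgguug
miR7534 site, Unigene3348:274-290: ucaaucuUgaucaaguu
The miRNAs that pair with them are as follows, with the seed in capitals.
miR530: tGCATTTGcacctgcacctcc
miR2873: tTTGGACTtaaatttggtaat
miR3623: cGAGTTCAtccaagcacca
miR6219: gAACCGGGactaaagatg
miR7534: aACTTGATtacagtttga
All 5 miRNAs were rare, with 3 small RNA reads for miR530 and 1 for each of the others. None of the 10 families with the most reads had a listed position, but only 5 of all 55 families had one. Low reads were not particular to these miRNAs, since sequences of the class without a site had a median of 2 reads. The conserved sequences had a median of 57.5 reads with a site and 12 without.

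None of the 5 positions had the most reads of its transcript. The most reads were at position 524 of CL6517.Contig2, the site of miR530, which in rice targets a gene for a PLUS3 domain protein. It held 47 of 33220 reads (0.141%, 0.104 to 0.188%), and 219 of the 437 positions with reads held more. Within 10 nt on either side, 7 of 20 positions held more, and their median was 42.5 reads. The highest position of this transcript was 400, with 489 reads.

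The site of miR3623 on Unigene12495 had 29 of 2156 reads at position 604 (1.35%, 0.903 to 1.93%). More reads lay at 16 of its 187 positions, with 52 at position 653. The site of miR6219 on CL275.Contig2 had 15 of 625 reads at position 414 (2.40%, 1.35 to 3.93%), and 7 of 82 positions were higher. Its highest position, 424 with 32 reads, lay 10 nt away, at the base after the site. In both transcripts, 3 of the 20 nearest positions held more reads than the listed one.

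The site of miR2873 on Unigene7825 had 8 of 73 reads at position 110 (10.96%, 4.85 to 20.5%), the largest share of the 5. No other read lay within 10 nt of it, so it was isolated. Even so, 4 of the 12 positions with reads were higher, up to 13 reads at position 255. The site of miR7534 on Unigene3348 had 8 of 1471 reads at position 281 (0.544%, 0.235 to 1.07%). There 79 of 186 positions held more, 5 of them within 10 nt, and the highest was position 722 with 35 reads.

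**Figure D4:**
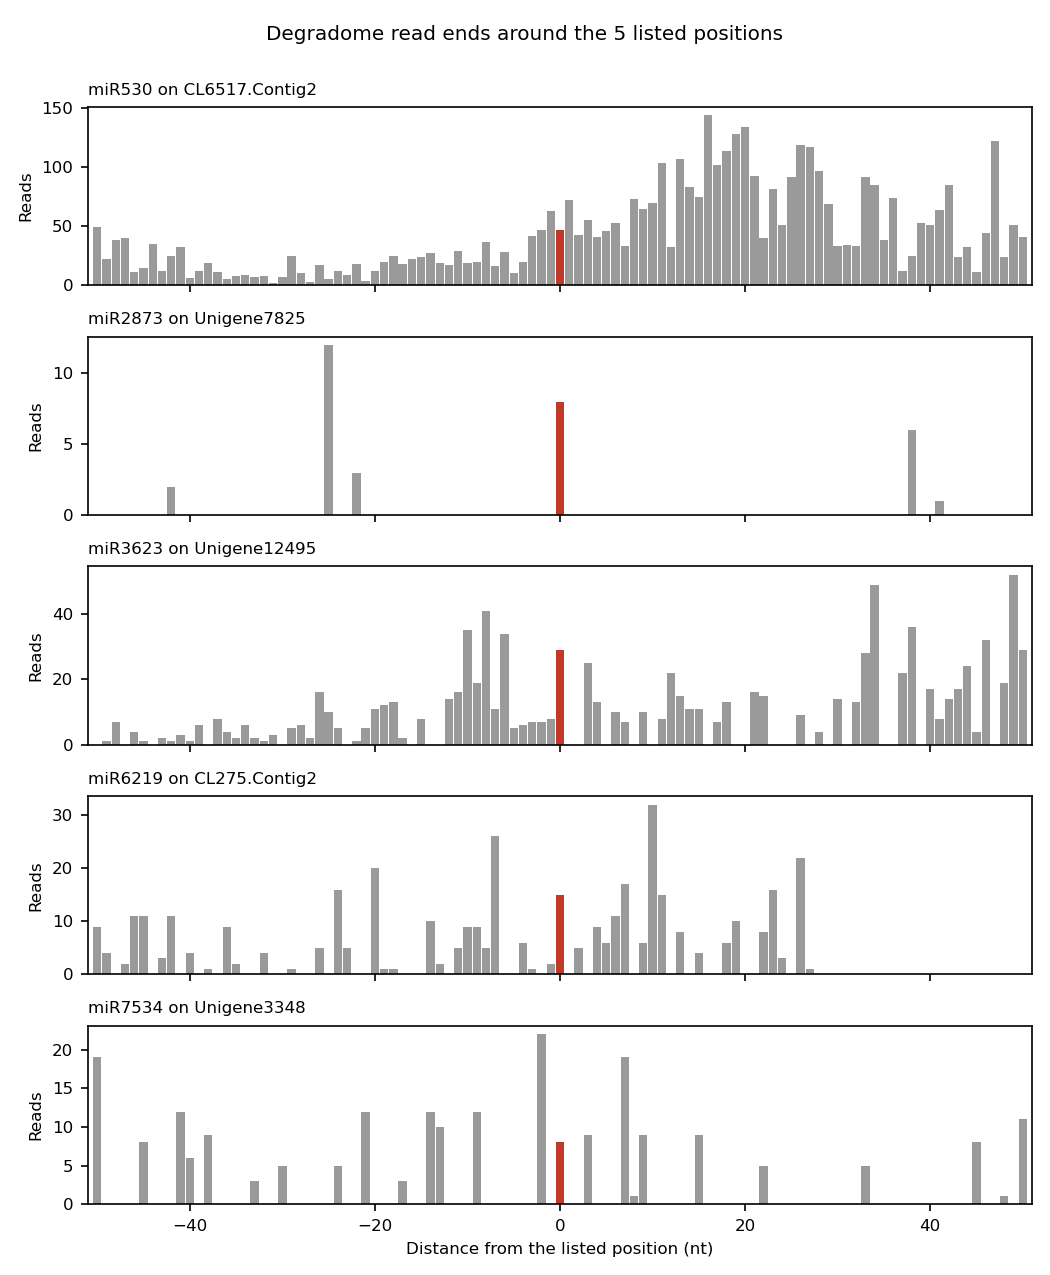
Degradome reads by distance (nt) from the listed position, 50 nt to either side, for the 5 less conserved families; the listed position is red. Higher positions lie within 10 nt in 4 of the 5 transcripts, and on Unigene7825 the listed position, with 8 reads, has no neighbour within 10 nt.

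In the authors' deposited table all 5 positions were of category 2, and none was of category 0 or 1, which over the 69 positions of the table were 26, or 37.7%. The p-values in the authors' deposited table were 0.0863 for miR2873, 0.11 for miR6219, 0.186 for miR530, 0.594 for miR3623 and 0.764 for miR7534. None was at most 0.05, against 39.1% of all positions. None was the highest position of its transcript, against 39.1% of all positions. These are not separate results, since every position of category 0 or 1 had p at most 0.05 and was the highest. No position of category 2 had p at most 0.05 or was the highest of its transcript. For the 55 positions of conserved families, 24 were of category 0 or 1, 25 had p at most 0.05 and 25 were the highest on their transcript, taking the best alignment of each position. With 5 positions, a share of 0 has an exact upper limit of 52.2%, so a lower share than in the table as a whole was not detectable. The alignments of 4 of the 5 sites contained a gap, against 13 of 55 conserved positions. Scores in the authors' deposited table were 3 to 4, where the conserved positions had a median of 3. The genes behind these assembled transcripts were not analysed here.

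**Figure D5:**
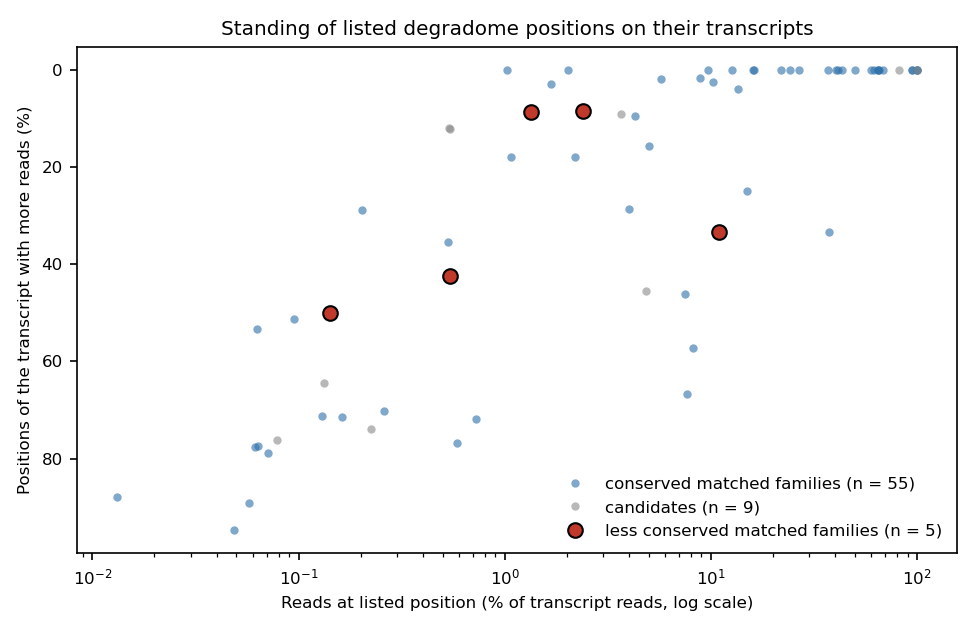
Each of the 69 listed degradome positions by its share of the reads of its transcript (log scale) and by the share of positions on that transcript with more reads (axis reversed, so that the highest positions are at the top). The 5 less conserved positions, in red with a black outline, lie between 8.54 and 50.1% on the vertical axis, and none is at 0.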

How the data were processed

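The small RNA column holds unnormalized reads, per the file headers, summing to 607592 listed reads. It is an estimated count, since the authors split some reads between entries, as 6 of the 65 entries used were not whole. Reads were summed over the entries of a sequence and rounded only for binomial intervals. The folding index is a score deposited by the authors. Aligner and genome build: not given in the sources used here. Degradome counts per position, categories, p-values and scores are as deposited by the authors, and the meaning of its columns was read from the values, because no column names come with them.

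Members and lists were chosen with earlier results of these data known. Named families are the 10 with the most reads, those on a contig and those with a degradome position. The others are given by name and range, except that values printed for single families among them were chosen after they were seen. Precursors were refolded with RNAfold 2.7.2. Pairs between arms were counted in the deposited foldings, and cut positions are as deposited, with the miRNA base opposite each taken from its alignment. Python 3.11.15, pandas 2.3.3 and SciPy 1.17.1 were used, and the procedures were tested on simulated data. Figures used matplotlib 3.10.9. No significance test was run, because each kind of data is 1 library.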

Additional observations from a re-analysis of the deposited data

How the results depend on the processing

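Of 24 alternatives, 12 left the value within its interval, or the count within 1.5 times, and 12 did not. The share of listed reads, 5.85%, was 3.001% without miR894, 40.7% with miR166 left out of the total, 2.84% among sequences on a contig and 2.85% without members ending in CCA, an alternative added after seeing the data. The share of 21-nt sequences, 19.7%, was 51.3% weighted by reads. That of 5′ uracil, 42.6%, was 5.81% weighted by reads and 28.6% on contigs, which leaves 7 sequences. Leaving out grass-named sequences, also added after seeing the data, gave 22.6% for 21 nt and 45.2% for uracil. The share placed on a contig, 11.5%, was 41.2% among the 17 sequences with at least 10 reads. The 5 degradome pairs were 0 at category 0 or 1, 0 at p at most 0.05 and 0 as highest position, which are overlapping criteria. They were 3 at 10 reads or more. Refolding covered 57 of 60 precursors, since 3 had a listed folding of another length. No paired analysis was possible because each kind of data is 1 library. Depth limits the 24 families with 1 read.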

Other observations

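A candidate hairpin resembled less conserved families of the registry, in a comparison chosen after the values were seen that asked for at least 19 aligned bases with at most 4 mismatches on either strand. PC-5p-104303_4, with 11 reads, matched miR3627 (3 reads) at 16 of 20 aligned bases and miR1432 (1 read) at 15 of 19. Its seed differed from both, and no seed of the class was shared with a candidate. How often unrelated sequences would match this well was not tested. It lies on a contig, as all 326 candidates do, since they were predicted from hairpins, so this is no contrast with those members. In its folding 18 base pairs join it to PC-3p-655791_1 (1 read), and each arm has a 3′ overhang of 2 nt. Over the candidate loci with both arms listed, the median was 13 pairs. Whether this hairpin is processed was not tested. The 3′ read differs from the contig by G22T, with the contig base first and positions counted from the 5′ end of the read. Capitals mark the seed in the mature sequences and both listed arms in the hairpin.
miR3627: tTGTCGCAggagagatggtgct
miR1432: tCAGGAGAgatgacaccgac
PC-5p-104303_4: tACGCAGGagagatggcgccgt
Hairpin, contig_2332:1868-1994, minus strand: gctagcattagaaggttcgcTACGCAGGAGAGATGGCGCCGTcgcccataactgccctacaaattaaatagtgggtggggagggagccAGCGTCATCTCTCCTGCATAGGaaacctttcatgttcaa

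The same comparison paired miR479 (50 reads, on no contig) with the conserved miR171 family on the opposite strand. Its sequence matched the reverse complement of a miR171c-3p sequence (57.5 reads) at 17 of 21 aligned bases, with seeds again in capitals.
miR479: cGTGTTATtggttcggctcatc
miR171c-3p: tTGAGCCGtgccaatatcacgt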
